A study of Mus musculus with 8 samples.

Results

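Klf7 encodes a Kruppel-like factor, a zinc finger transcription factor, and was the only gene of a 10-gene Kruppel-like factor family set with a row in the tables analysed here. The set was Klf2, Klf3, Klf4, Klf5, Klf6, Klf7, Klf9, Klf10, Klf13 and Klf15, each matched by its mouse Ensembl identifier. Klf7 (ENSMUSG00000025959) was 1 of the 1933 gene rows shared by the 8 tables and 1 of the 420 rows with enough reads to be tested. The other 9 members lie on other chromosomes and were not analysed here, so nothing below describes the family's expression. Klf7 was singled out because it differed between the genotypes in these libraries. Its levels and its difference are therefore a description with no p-value.

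The libraries were poly(A) RNA libraries of cells labelled hepatic stellate cells, from male mice with diet-induced steatohepatitis (MASH). Both groups were fed Western diet (21% fat, 20% protein and 50% carbohydrate) from 4 weeks of age for 20 weeks and were analysed in week 24. The floxed control AREL1fl/fl (fl/fl below) and the stellate cell knockout AREL1HSC-KO (KO below) had 4 libraries each, so the floxed allele and the diet are shared by both groups. AREL1 is an E3 ubiquitin ligase, and no Cre driver is named in the labels. The comparison asks what its loss in stellate cells changes in their transcripts. Groups follow the sample titles, although the genotype entries of 3 KO libraries number the gene differently. Nothing in the labels ties each library to its own mouse, so the p-values measure library-to-library spread and that spread may be technical.

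Kruppel-like factors bind GC-rich and CACCC-type elements through C2H2 zinc fingers at their C-terminal end, and differ mainly in the N-terminal part that recruits coactivators or corepressors. Klf7 was first described as a ubiquitously expressed member and is best known for roles in neuronal development and in restraining adipocyte differentiation. Among the members with no row here, Klf6 is known as an early gene of stellate cell activation, Klf10 as a gene induced by TGF-beta, Klf2 and Klf4 for endothelial responses to flow, and Klf15 for the control of metabolic genes.

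In GENCODE M21 (GRCm38), Klf7 spans chr1:64029447-64122282 on the minus strand and is protein-coding, with 8131 bases of merged exons. A stretch before the start of its longest messenger RNA is shown because it holds the elements that Kruppel-like factors bind. It is the part of the RefSeq promoter window (GRCm38.p6, minus strand, chr1:64121492-64121639) that lies upstream of the start of the longest Klf7 messenger RNA in GENCODE as well as of the RefSeq start. It lies inside the annotated gene span, in the first intron of a Klf7 transcript that starts farther upstream. Capitals mark a GC box (GGGCGG) and the CACCC core, which reads GGGTG on the strand printed.

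Klf7: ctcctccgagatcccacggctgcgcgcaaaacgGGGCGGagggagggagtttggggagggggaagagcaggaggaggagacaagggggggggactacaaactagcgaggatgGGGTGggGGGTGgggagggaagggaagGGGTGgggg

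The whole window of 250 bases before to 50 after the RefSeq start held 1 GC box and 3 CACCC cores, searched on both strands, and all 4 matches are in the stretch above without overlapping each other. Of 32851 promoter windows of this length in the RefSeq table, 35.7% held a GC box and 57.5% a CACCC core. Windows were present for 8 members, of which 7 held a GC box and 6 a CACCC core. From 150 bases before the start, 5 of the 8 held a GC box and 6 a CACCC core. Of 233 windows of tested genes that did not pass the test below, 64.4% held a GC box and 64.8% a CACCC core. Nothing is read from the member counts against these shares. Klf5 and Klf10 had no window in the table. These matches describe letters in a window and are not binding sites.

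Klf7 was higher in every KO library than in every fl/fl library. In fl/fl it had 420, 377, 378 and 465 reads in replicates 1 to 4, or 21.6, 21.5, 21.9 and 26.6 CPM, which is reads scaled to the library's gene-assigned total after TMM adjustment. In KO it had 816, 849, 697 and 621 reads, or 33.4, 33.1, 33.8 and 31.9 CPM. The 4 KO libraries thus lay close together, as did fl/fl replicates 1 to 3, and fl/fl replicate 4 lay between them.

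The fl/fl mean was 22.9 ± 2.49 CPM and the KO mean 33.0 ± 0.847 CPM (SD, n = 4), a 1.45-fold difference with a log2 fold change of 0.53 (SE 0.057). The lowest KO library was 1.20 times the highest fl/fl library. Among the 420 genes the groups did not overlap in 31.4%, and every KO library was the higher in 14.8%. By the same fit, 37.6% of the 420 genes passed an adjusted p under 0.05 (edgeR quasi-likelihood test), 18.3% higher and 19.3% lower in KO. Klf7 was chosen from this contrast, so nothing is read from these shares about it. Its log2 fold change ranked 13 from the top among the 420 genes and 3 among the 321 genes with a mean of at least 5 CPM. The median over all 420 genes was 0.0034, and the median absolute value was 0.12.

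**Figure D1:**
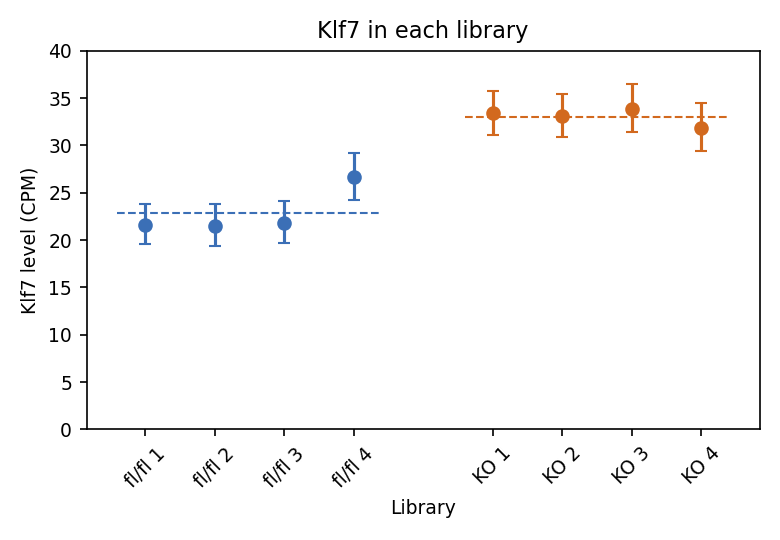
Klf7 level in CPM (vertical axis, from 0) in each library (horizontal axis). Points are libraries, bars are exact Poisson 95% intervals of the Klf7 reads, which cover counting error only, and dashed lines are group means. The KO libraries sit between 31.9 and 33.8 CPM, fl/fl replicates 1 to 3 between 21.5 and 21.9, and fl/fl replicate 4 at 26.6.

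Counting error bears on these levels, since each rests on 377 to 849 reads. The exact Poisson 95% intervals ran from 19.4 to 24.2 CPM over fl/fl replicates 1 to 3, from 24.2 to 29.1 CPM in fl/fl replicate 4 and from 29.4 to 36.4 CPM over the KO libraries. The interval of fl/fl replicate 4 overlapped none of the other 7. Its upper bound was 29.15 CPM and the lowest bound in KO 29.40 CPM. Its lower bound was 24.25 CPM and the highest bound of the other fl/fl libraries 24.17 CPM.

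This library lay 43.6% of the way from the mean of the other fl/fl libraries (21.7 ± 0.186 CPM, SD over replicates 1 to 3) to the KO mean. Left out, the ratio of mean levels was 1.53 and the fitted log2 fold change 0.61. Klf7 was not alone in this. Over the 143 genes that passed the test with at least 5 CPM on average, the same library lay a median of 41.6% of the way and on the KO side in 122. In 64 of them it lay farther along than in Klf7. Over all tested genes the chi-square per degree of freedom between its counts and those of another fl/fl library was 3.37 to 3.47. Between the remaining fl/fl libraries it was 1.39 to 1.86, and within KO at most 1.79.

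Level per length places Klf7 among the less abundant genes. In CPM per kilobase of merged exons it stood at 2.82 in fl/fl and 4.06 in KO, where the median of the 374 tested protein-coding genes was 6.46 and 6.17. On this scale it ranked 11 of 16 transcription factor genes in fl/fl and 6 of 16 in KO. These ranks describe group means, and lengths come from GENCODE M21, which may not be the annotation behind the counts.

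Overlapping genes could change what the Klf7 count holds. In GENCODE M21 the long noncoding RNA gene Gm26649 lies on the opposite strand inside the last exon of Klf7 and covers 3196 bases, or 39.3%, of the merged exons. It has no row in the tables analysed. A read that also lies on a gene of the opposite strand is left out of the either-strand count but kept in 1 of the 2 strand columns. The surplus of the strand columns over the either-strand count was 7 to 26 reads per library, or 1.64% to 2.97% of the strand-column reads, so few Klf7 reads were set aside in this way. The antisense gene Gm13748, which shares 4 exonic bases with Klf7, had at most 1 read in any library. The kit is named as stranded, yet Klf7 reads fell on both strands about equally, with a reverse-to-forward ratio of 0.902 to 1.12 in fl/fl and 0.972 to 1.20 in KO. Transcripts of Klf7 and of Gm26649 can therefore not be told apart in these counts. The fitted log2 fold change was 0.49 with forward-strand counts and 0.57 with reverse-strand counts.

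**Figure D2:**
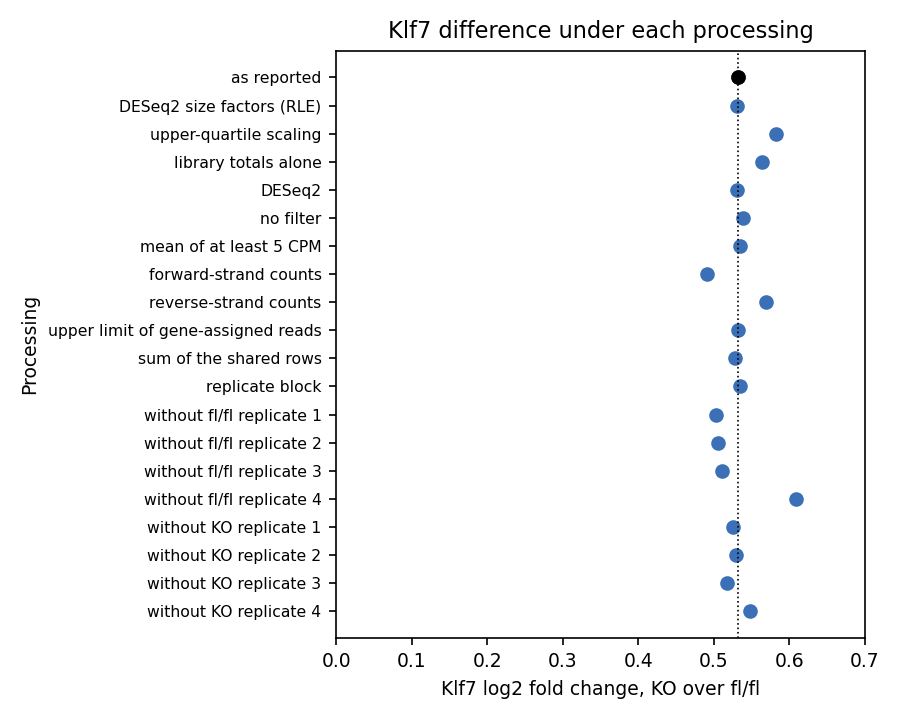
Klf7 log2 fold change of KO over fl/fl (horizontal axis, from 0) under each processing (vertical axis). The black point and dotted line mark the reported value of 0.53. All values lie between 0.49 (forward-strand counts) and 0.61 (without fl/fl replicate 4).

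The genes whose level followed Klf7 most closely were sought among the 320 other genes with a mean of at least 5 CPM, by Pearson's r of log2 CPM over the 8 libraries. The libraries share the genotype difference, so r describes that difference first, and no p is given. Of the 8 highest, 6 are described here: Mcm6 (r = 0.993), Cnnm3 (0.982), Nop58 (0.979), Eprs (0.979), Lamc1 (0.978) and Sulf1 (0.978). Of the 12 genes named in this and the next paragraphs, Capn2 shares 27.1% of its exon bases with a gene on the other strand, and no other shares more than 7.27% (Sema4c). These 6 encode, in that order, a subunit of the replicative helicase, a member of the CNNM magnesium transport family, a core protein of box C/D small nucleolar particles, the glutamyl-prolyl-tRNA synthetase, the laminin gamma-1 chain and a heparan sulfatase.

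Sulf1 stood at 10.5, 12.5, 10.3 and 15.6 CPM in fl/fl replicates 1 to 4 and at 21.0, 21.7, 21.1 and 21.1 CPM in KO. Like Klf7, it was level across KO and highest of the control group in fl/fl replicate 4. It averaged 12.2 ± 2.45 CPM in the control and 21.2 ± 0.288 CPM in the knockout (SD, n = 4), the only one of the 6 with a larger ratio (1.74-fold) than Klf7. Mcm6, the gene with the highest r, went from 388.6 ± 13.2 to 447.1 ± 4.52 CPM, a ratio of only 1.15. A high r therefore says nothing of the size of a difference.

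The 6 genes with the lowest r were Col6a3 (-0.994), Dpt (-0.987), Hspd1 (-0.987), Prdx6 (-0.986), Capn2 (-0.985) and Sema4c (-0.979). Col6a3 encodes a chain of collagen VI and Dpt the matrix protein dermatopontin. Hspd1 encodes the mitochondrial chaperonin HSP60, Prdx6 a peroxiredoxin, Capn2 a calpain protease and Sema4c a semaphorin. Dpt stood at 19.3, 20.4, 20.6 and 14.7 CPM in fl/fl and at 6.67, 6.86, 6.70 and 6.82 CPM in KO, so it was low where Klf7 was high and intermediate in fl/fl replicate 4. In all 6 of these most similar genes and all 6 most opposite ones, fl/fl replicate 4 was the fl/fl library nearest to KO. The genes were chosen by their likeness to Klf7 over these same libraries, that one included, so this is part of how they were chosen and nothing is read from it. Without that library 4 of the 6 similar genes were again among the 8 highest, and with Spearman's rho 1 of the 6.

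**Figure D3:**
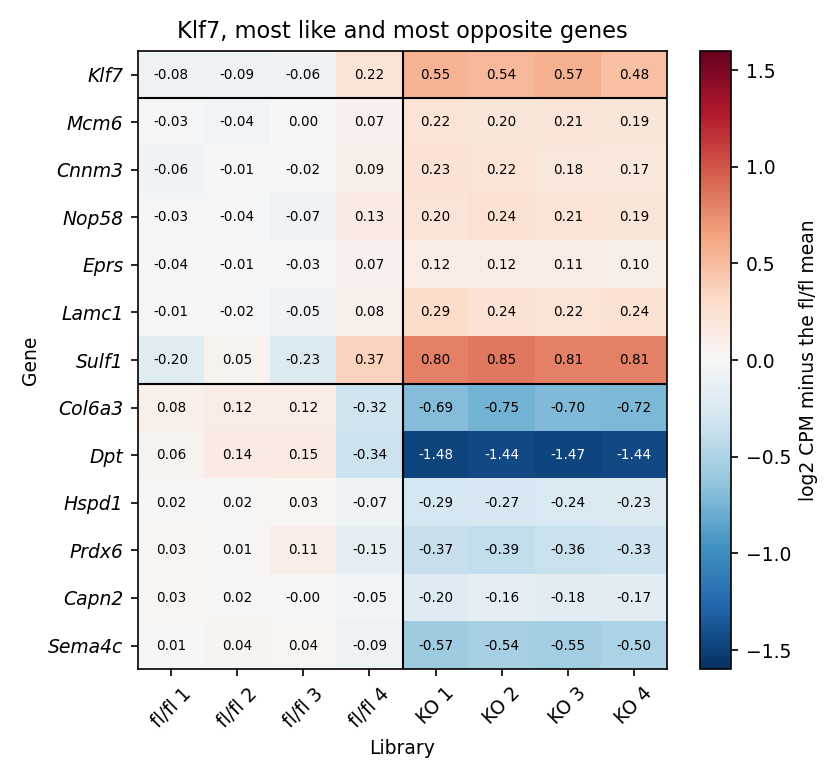
Level of Klf7 (top row), of 6 of the 8 genes with the highest r and of the 6 with the lowest (rows), as log2 CPM minus the gene's mean over the fl/fl libraries, in each library (columns). Numbers in the cells are these differences, and the column of fl/fl replicate 4 lies between the other fl/fl libraries and KO in every row.

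Other transcription factor genes of chromosome 1 gave the nearest comparison that the rows allow. Of 54 on a list drawn up for this purpose, 28 had a row and 16, Klf7 included, were tested. Of the 15 others, 1 rose, 2 fell and 12 did not pass the test, which is 20% passing against 37.6% of all 420 genes. Their median log2 fold change was -0.059, against 0.0034 over all genes. None of the 15 had a log2 fold change as high as that of Klf7, and the next was Atf3 at 0.24. Klf7 was chosen from this contrast, so its place above them follows in part from that choice and nothing is read from it. No test of that difference between genes was made.

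Atf3, a stress-induced bZIP factor, rose by 18.0%, with a mean of 37.8 ± 3.59 CPM in the control and 44.7 ± 1.601 CPM in the knockout (SD, n = 4; edgeR adjusted p = 0.000913). Its fl/fl libraries stood at 40.1, 35.7, 33.9 and 41.5 CPM and its KO libraries at 45.5, 42.7, 44.4 and 46.4 CPM, so the groups came close without overlapping.

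Prrx1, a homeobox factor of mesenchymal cells, fell by 19.2% from 32.8 ± 2.25 to 26.6 ± 2.59 CPM (SD, n = 4; edgeR adjusted p = 0.00043). Its KO replicate 3, at 30.4 CPM, almost reached the lowest fl/fl library at 30.6 CPM. Zbtb37, a BTB zinc finger factor, fell by 10.8% and stood at 16.9 ± 0.605 CPM in the control and 15.0 ± 0.608 CPM in the knockout (adjusted p = 0.0367 by edgeR). The call for Zbtb37 was lost under 12 of the 19 alternatives (adjusted p up to 0.150), the removal of fl/fl replicate 2, 3 or 4 or of KO replicate 1, 3 or 4 among them. Exons of Zbtb37 share 15.6% of their bases with Serpinc1 on the other strand, so its count is uncertain. The 12 that did not pass ran from -0.27 (Gli2, a Hedgehog pathway factor, SE 0.18) to 0.22 (Batf3, SE 0.14).

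**Figure D4:**
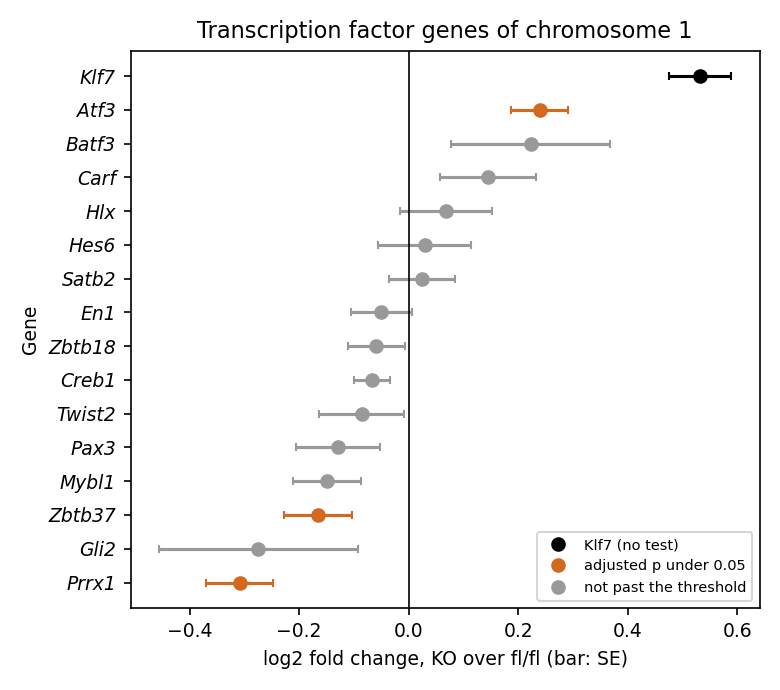
log2 fold change of KO over fl/fl (horizontal axis) with its SE (bars) for the 16 transcription factor genes of chromosome 1 that were tested (vertical axis). Klf7, chosen from this contrast and shown without a test, lies at 0.53, and the other 15 lie between -0.31 and 0.24.

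Of 27 genes of the wider Kruppel-like and SP factor family on another list, only Klf7 had a row. Of 32 cofactors and reported targets of Kruppel-like factors on a further list, only Hdac4 had a row. Hdac4, a class IIa histone deacetylase that acts as a corepressor, stood at 29.8, 27.6, 29.9 and 32.3 CPM in fl/fl and at 34.6, 33.0, 31.6 and 33.1 CPM in KO, and the groups overlapped. It rose by 10.7% (edgeR adjusted p = 0.0188), and Gm26720 lies over 22.4% of its exon bases on the other strand. The call was lost with DESeq2 (adjusted p = 0.0515), on forward-strand counts (0.251), and on leaving out fl/fl replicate 2 (0.0952) or KO replicate 1 (0.0775). The known KLF7 cofactor gene Fbxo38 and the reported targets Cdkn1a and Cdkn1b had no row and were not analysed here.

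The same elements were counted in the promoter windows of the tested genes, as a description with no test. The GC box was present in 63.3% of 79 windows of genes that rose, 64.1% of 78 windows of genes that fell and 64.4% of 233 windows of genes that did not pass. The CACCC core was present in 70.9%, 61.5% and 64.8%. In the shorter window from 150 bases before the start the CACCC shares were 45.6%, 47.4% and 48.1%, so the order of the groups turned. Several windows can belong to 1 gene.

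Of the 6 nearest genes that could be compared on the chromosome, 1 passed the test, where 37.6% of all 420 genes did. The tested protein-coding genes with a mean of at least 5 CPM nearest to it were Creb1, Mettl21a and Ccnyl1 toward higher coordinates and Nrp2, Raph1 and Abi2 toward lower ones, at 410.4 to 3548 kilobases in GRCm38. Nrp2, a co-receptor for semaphorins and VEGF, rose by 14.4% from 94.8 ± 7.43 to 108.3 ± 2.90 CPM (SD, n = 4; edgeR adjusted p = 0.000809), with fl/fl replicate 4 at 105.9 CPM, and the groups overlapped. The other 5 did not pass. Creb1, the cAMP-response factor and the nearest of the 6, stood at 77.0 ± 1.48 and 73.6 ± 2.22 CPM, a log2 fold change of -0.067 (SE 0.033). Mettl21a, a lysine methyltransferase, had a log2 fold change of 0.13 (SE 0.061), and it passed with upper-quartile scaling, with library totals alone and without fl/fl replicate 4 (edgeR adjusted p of 0.0139 to 0.0389).

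The makeup of the samples could be checked only in part. The targeted gene Arel1 and the defining stellate cell genes have no row here, so neither the knockout nor the cell type was verified on them. Fewer cells of a type and less RNA per cell cannot be told apart in such bulk libraries. Of 28 stellate and mesenchymal genes listed, 5 had a row (Col3a1, Col5a2, Col6a3, Dpt and Prrx1). All 5 fell (edgeR adjusted p under 0.05), by 9.52% (Col3a1) to 63.9% (Dpt), where 19.3% of all 420 genes were lower, and this list was chosen with these results known. Summed without the TMM adjustment, they reached 1188 to 1236 CPM in control libraries and 1072 to 1097 CPM in knockout libraries. Col3a1 and Col5a2, with control means of 485.2 and 673.0 CPM, made up most of this sum. The sum therefore mainly followed these genes, and it moved with the groups, opposite to Klf7. The hepatocyte and leukocyte sums and the Prox1 and Pkhd1 levels below are also without the TMM adjustment. The 3 listed hepatocyte genes with a row summed to at most 0.715 CPM in any library, with C4bp at 0. For the 9 leukocyte genes the sum was 4.09 to 4.82 CPM in control and 3.63 to 4.33 CPM in knockout libraries, with Xcl1 and Ctla4 at 0. Of these, Batf3 did not pass. Gpr35, a G protein-coupled receptor gene, averaged 1.03 ± 0.108 CPM in control and 0.268 ± 0.12 CPM in knockout libraries (SD, n = 4; adjusted p = 4.44e-05 by edgeR). It had enough reads for the test only through the control libraries, where it is high, so nothing is read from this call. Gpr35 did not enter the fits on forward-strand or reverse-strand counts. Of 14 genes listed for endothelium only Prox1 had a row, and of 8 listed for cholangiocytes only Pkhd1. Prox1 reached at most 0.049 CPM and Pkhd1 0.0567 CPM in any library. With 1 gene each, the presence of these cell types was not checked. Unmapped reads were 1.04% to 1.19% of a library in fl/fl and 1.44% to 1.58% in KO. Reads without a feature were 4.30% to 4.34% in fl/fl and 3.93% to 4.14% in KO, so neither measure overlapped between the groups. The part of these measures in the Klf7 difference was not tested. Depth, as gene-assigned reads per library, was 17619387 to 19663030 in the control group and 19271004 to 25165289 in the knockout group.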

How the data were processed

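Per the labels' protocols, livers were digested and stellate cells taken from an OptiPrep gradient, and poly(A) libraries were built with a kit described as stranded. The data are tables of raw read counts, deposited by the authors as 1 file per library in STAR's gene-count format. Tools named in the submitters' processing notes are fastp, STAR 2.7.10a and DESeq2 1.38.0. The notes list GRCm38 as well as GRCm39, and no annotation release is named. The tables analysed have 1933 to 1943 gene rows, not counting a broken final line, and the 1830 of the 1933 shared rows that have a symbol are all on chromosome 1. The column for reads of either strand was used.

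The rows hold 3.20% to 3.28% of a library, so library size was derived from the summary counts. Reads without a feature were summed over both strand columns, 2 times their either-strand number was taken off, and so were the ambiguous reads of both strands. This is a lower limit, and the upper limit is 2.59% to 2.65% above it in fl/fl and 2.51% to 2.57% in KO. Unassigned reads stayed out of tests. In R 4.3.3 with edgeR 4.0.16, filterByExpr kept 420 genes, TMM scaled them, and the robust quasi-likelihood F test compared KO with fl/fl at a Benjamini-Hochberg adjusted p of 0.05. The common biological coefficient of variation was 2.53%. DESeq2 1.42.0 was an alternative. No libraries within a group agreed to within sampling noise (largest chi-square p = 3.68e-07).

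Correlations used log2 CPM with a prior count of 2. The members and gene lists were chosen with earlier results of these data known. Genes named are Klf7, the 8 with the highest and 6 with the lowest r, the 3 nearest tested protein-coding genes on each side, and the tested members of a list or, where a list had over 6, those that passed (at most 4 in each direction). Gli2 and Batf3 were named after their values were seen, as the ends of a range. Promoter windows are from RefSeq (GRCm38.p6), matched by symbol. Protein sequences were not used here. Some genes that the rules or lists would take in are not reported here and are left out of the list counts.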

Additional observations from a re-analysis of the deposited data

Results flagged for a closer look

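Dixon's criterion (the gap to the nearest library over the whole range, at its 95% critical value for 4 samples) was applied to both groups of all 28 named and tested genes. About 1 in 20 such groups meets it by chance, which is 2.8 of 56, and genes share their libraries, so these groups do not count as separate tries. The criterion was met 6 times, 5 times by fl/fl replicate 4. Of the genes, 12 were chosen for following or opposing Klf7 over these same libraries, that one included. Gli2 was named after its values were seen. Nothing is therefore read from the 6 against the 2.8. For Klf7 the value of 26.6 CPM in that library compares with 21.5 to 21.9 CPM in replicates 1 to 3, a gap of 0.929 of the range. The same library was high for Nrp2 (105.9 CPM, the rest 90.3 to 91.9). It was low for Col6a3 (16.8 CPM, the rest 22.3 to 22.9), for Hspd1 (1385 CPM, the rest 1469 to 1479) and for Gli2 (1.66 CPM, the rest 2.49 to 2.52). Prrx1 was high in KO replicate 3 (30.4 CPM, the rest 25.1 to 25.8).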

How the results depend on the processing

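The Klf7 log2 fold change of 0.53 kept its sign under all 19 alternatives. Under the 11 that kept every library it moved by less than the pooled SD between replicates (0.11). Leaving out 1 of 4 libraries can hardly move a group mean by that much, so nothing is read from this bound there. The log2 fold change ranged from 0.49 to 0.58 over the 11 that kept every library and from 0.50 to 0.61 when 1 library was left out. The count of 158 genes called ran from 120 (forward-strand counts) to 172 (upper-quartile scaling) over those 11, and from 132 to 191 with 1 library left out. The 48.7% of calls that were higher in KO became 69.8% with upper-quartile scaling and 60.6% with library totals alone. Of the 21 tested list genes other than Klf7, 9 were called, Gpr35 among them, where 37.6% of all 420 genes were, and 7 to 9 under the alternatives. Of 508 recomputed values of the other named genes, 17 lost a call, 3 gained one and 4 changed sign. Those 4 were never called: Ccnyl1 at 0.022 with upper-quartile scaling, 0.0028 with library totals alone and 0.018 with forward-strand counts, and Raph1 at -0.018 with reverse-strand counts. With Spearman's rho 1 of the 6 genes most like Klf7 remained, and the shorter promoter window held 0 GC boxes. No pairing of the libraries by replicate number was seen (correlation of deviations from -0.16 to 0.13 for the same number). None of the libraries correlated best with the library of its own number in the other group. This does not exclude a pairing. With the replicate block 150 genes were called and the Klf7 log2 fold change was 0.53. Klf7 rests on 377 to 849 reads per library, which limits its precision. The comparison of protein sequences was not run.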
